A study of Homo sapiens with 6 samples.

Results

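Interferon-stimulated genes are the genes whose transcription cells raise when they sense interferon. A list of 34 of them was taken, with RNA sensors and chemokines left out. The array read 33 of the 34 through a probe set with exactly 1 gene symbol, out of 19775 genes read in this way, and for each gene the probe set of highest mean signal over the 6 arrays is given first. STAT2 was not analysed here. The cells were human umbilical vein endothelial cells (HUVECs), primary endothelium of cord veins, bought commercially and grown in medium with serum, growth factors and hydrocortisone. One group was transfected with an siRNA directed at ANRIL, a long noncoding transcript, and the other with scrambled siRNA, by the same non-liposomal reagent, so both groups received transfected double-stranded RNA and no untransfected group is described here. Each group had 3 arrays (Affymetrix Human Genome U133 Plus 2.0, 1 array per transfected sample). The time after transfection, the dose, and whether the 3 samples of a group came from separate donors are not stated in the labels, so p-values measure the spread between these samples, which may be technical.

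Type I interferons bind the receptor chains IFNAR1 and IFNAR2, whose kinases JAK1 and TYK2 activate the complex ISGF3, of which STAT2 and IRF9 are parts. It binds the interferon-stimulated response element (ISRE) in the promoters of its targets. Interferon-gamma acts mainly through gamma-activated sites (GAS). The products restrict viruses at many steps, and a low level of many of them is maintained in cells that have met no virus. Endothelial cells respond to both kinds of interferon, and double-stranded RNA in the cytosol, which transfection delivers, is a known trigger of interferon production.

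The duplex used against ANRIL is shown because it is the treatment itself. Its strands were read from the series' protocol and are written 5′ to 3′, with bases that have no partner on the other strand in capitals.

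sense strand: ggauaugugccaugaguaagaauaa

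antisense strand: uuauucuuacucauggcacauauccAU

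The sense strand has 25 bases and the antisense strand 27, with 25 pairs and 2 unpaired bases at the 3′ end of the antisense strand. The scrambled control duplex has no sequence in the labels.

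RefSeq promoter windows of GRCh38.p14, from 250 bases before to 50 bases after a transcription start, were at hand for 28 of the 34 genes (39 windows). A core of the ISRE is made of GAAA, any 2 bases and again GAAA, on either strand. It was found in 19 of these 28 genes (67.9%), against 4.38% of all 27305 genes with a window. By window it was found in 23 of 39 (59%), against 3.57% of all 35116 windows of the same length. The GAS core, TTC and GAA with any 3 bases between them, was found in 9 of the 28 genes (32.1%), against 9.38% of all genes. By window its share was 25.6%, against 7.66% of all windows. Of the ISRE cores of these genes, 5 started within 10 bases of a GAS core, so the motifs are not wholly separate. A match of letters is a description of a window and does not show binding. The stretches that follow are those of the genes whose values per array are given further on and that hold an ISRE core before the start site. Capitals mark the core on either strand, and the last base of the core nearest the start lay 9 to 127 bases before it.

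ISG15, chr1:1013359-1013424, plus strand: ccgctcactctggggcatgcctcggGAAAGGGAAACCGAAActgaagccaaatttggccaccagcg

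IFI6, chr1:27672251-27672373, minus strand: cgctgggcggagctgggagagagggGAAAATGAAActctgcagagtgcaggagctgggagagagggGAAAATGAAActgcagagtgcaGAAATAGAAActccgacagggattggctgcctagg

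IFI44, chr1:78649746-78649788, plus strand: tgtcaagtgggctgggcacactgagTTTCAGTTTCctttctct

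IFI27, chr14:94110603-94110675, plus strand: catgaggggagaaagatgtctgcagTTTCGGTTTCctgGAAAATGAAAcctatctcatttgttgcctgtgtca

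PARP14, chr3:122680785-122680838, plus strand: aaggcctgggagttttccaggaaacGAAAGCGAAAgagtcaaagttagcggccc

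DDX60, chr4:168318771-168318865, minus strand: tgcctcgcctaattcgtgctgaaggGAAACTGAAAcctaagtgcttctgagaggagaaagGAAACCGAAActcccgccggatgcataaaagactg

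SAMD9, chr7:93118081-93118140, minus strand: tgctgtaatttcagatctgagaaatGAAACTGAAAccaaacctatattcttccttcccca

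IFIT3, chr10:89327816-89327909, plus strand: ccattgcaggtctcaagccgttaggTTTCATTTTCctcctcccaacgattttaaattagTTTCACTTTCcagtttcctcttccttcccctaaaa

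IFIT1, chr10:89392482-89392554, plus strand: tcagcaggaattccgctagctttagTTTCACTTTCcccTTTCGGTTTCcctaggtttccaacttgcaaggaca

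These 9 stretches hold the same core, while the values of their genes did not all lie on 1 side of the controls: those of IFIT3 lay above them at its brightest probe set.

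Values are the deposited log2 intensities. The targeted transcript, listed as CDKN2B-AS1, lay at percentile 4.62 of all genes by signal and differed by −0.10 ± 0.10 (SE, n = 3 per group, limma adjusted p = 0.606), so at so dim a probe set the knockdown could not be judged from the arrays. The 16 endothelial markers had a median percentile of 94.6. Their mean log2 signal was 11.73 to 11.79 in the control arrays against 11.54 to 11.63 after ANRIL siRNA. Of these markers 16 of 16 were below 0, with a median of −0.17. In the brightest signal decile, which holds their median percentile, 12.3% of all genes were above 0. The 11 measured leukocyte markers had a median percentile of 31.9, with a mean log2 signal of 5.64 to 5.74 and 5.72 to 5.86. Of these markers 9 of 11 were above 0. In signal decile 4, which holds their median percentile, 72.1% of all genes were above 0. These 11 markers lay between percentiles 7.90 (PTPRC, which encodes the leukocyte antigen CD45) and 55.6 (CD3E, a T cell receptor subunit). Of the markers of plasmacytoid dendritic cells, which make much interferon, CLEC4C lay at percentile 8.14, IL3RA at 31.9 and LILRA4 at 36.8. A measure of RNA integrity, the 3′ minus 5′ signal of ACTB control probe sets, was 0.54 ± 0.05 (SD, n = 3) in controls and 0.72 ± 0.13 (n = 3) after ANRIL siRNA (exact permutation test, two-sided, p = 0.2, with 0.1 the smallest the design allows). The same measure for GAPDH was 0.00 ± 0.01 and 0.06 ± 0.03 (exact permutation p = 0.1). The medians of the smooth muscle, fibroblast and epithelial marker lists differed by 0.07, −0.05 and 0.06. The part of these measures in the results was not tested. In bulk RNA, fewer cells of a type and less RNA per cell cannot be told apart. Bright probe sets in general were lower with ANRIL siRNA and dim ones higher, with a median difference of −0.07 in the brightest signal decile and 0.07 in decile 3.

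With ANRIL siRNA, most interferon-stimulated genes lay slightly below their control values, with the helicase gene DDX60 of smallest p among them, while the antiviral GTPase gene MX2 lay above. Differences are ANRIL siRNA minus control siRNA, and 26 of 33 genes were below 0, or 78.8% against 51.4% of all genes. Their median difference was −0.12, against −0.0046 over all genes, and single differences ran from −0.39 for IFIT1 to 0.37 for MX2. None of the 33 passed limma's test at an adjusted p of 0.05 over all genes, where 0% of all 19775 genes passed, and their adjusted p-values ran from 0.147 to 0.99. At an unadjusted p under 0.05, 9 of the 33 were lower and 3 higher, where 8.16% and 9.83% of all genes were. All 3 ANRIL siRNA arrays lay below all 3 control arrays for 9 genes and above them for 2, where 12.8% and 10.6% of all genes did so. The sizes were small: 2 of 33 genes were at least 1.2-fold lower and 1 at least 1.2-fold higher, against 1.13% and 2.11% of all genes.

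Since bright genes in general lay below 0, the members were set beside genes of like signal. Of the 19 members above the median signal, 17 were below 0 (89.5%), against 74% of all genes above it, and of the 14 at or below the median signal 9 were below 0 (64.3%), against 28.7% of all genes there. Of the 19, 9 were lower with no overlap, against 23.2% of all genes above the median signal. In all, 28 of 33 lay below the median difference of all genes in their own signal decile. Cyclic loess, which removes the trend with signal, left 26 of 33 below 0, against 46.3% of all genes. Repeated quantile normalization of the probe set values left 26, against 44.8%, and arrays centred on their medians gave 28, against 65.6%. The median of the 33 was −0.09 with the former 2, against 0.01 over all genes, and −0.17 with the last, against −0.05.

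**Figure D1:**
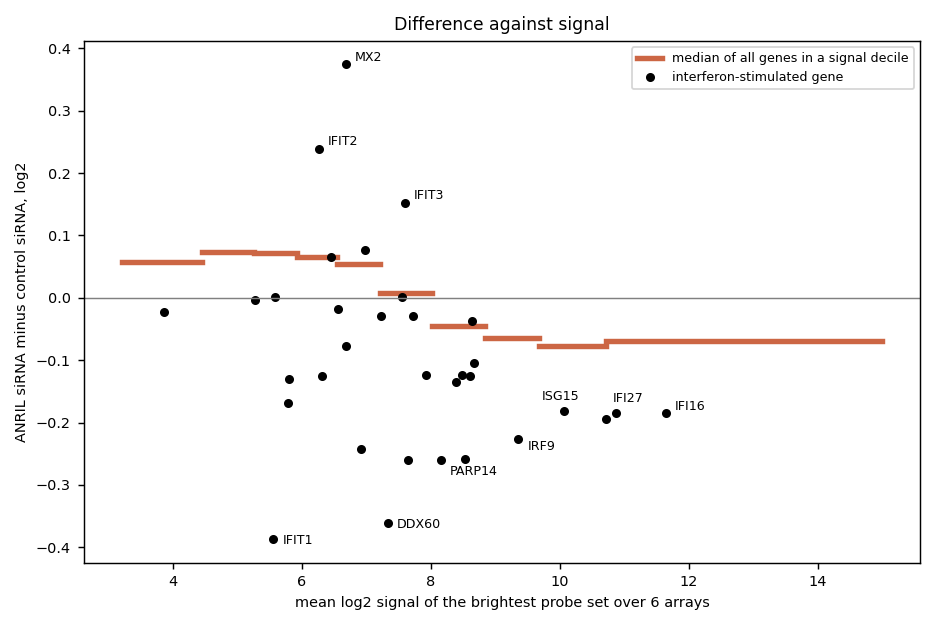
Each point is 1 of 33 interferon-stimulated genes, with the mean log2 signal of its brightest probe set over 6 arrays on the x axis and the log2 difference, ANRIL siRNA minus control siRNA, on the y axis. Horizontal bars give the median of all genes in each signal decile, and 28 of 33 points lie below the bar of their decile, while MX2 at 0.37 lies farthest above.

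The 33 genes were not equally low in the 3 ANRIL siRNA arrays. Their median deviation from the control mean was −0.04 in replicate 1, −0.13 in replicate 2 and −0.16 in replicate 3, while the control arrays stood at −0.04, 0.05 and −0.03. Replicate 1 of ANRIL siRNA thus lay at the level of the lowest control array in this summary, and replicates 2 and 3 below all controls. Below the lowest control value lay 11 of the 33 genes in replicate 1, 19 in replicate 2 and 18 in replicate 3, against 32.6%, 24.7% and 37.5% of all genes in those arrays. Without control replicate 2 the median difference of the 33 was −0.08 and without ANRIL siRNA replicate 3 it was −0.07. The number with no overlap on the lower side went from 9 to 15 when control replicate 3 was left out, where 18.1% of all genes did so, and to 14 when ANRIL siRNA replicate 1 was left out, where 16% did.

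**Figure D2:**
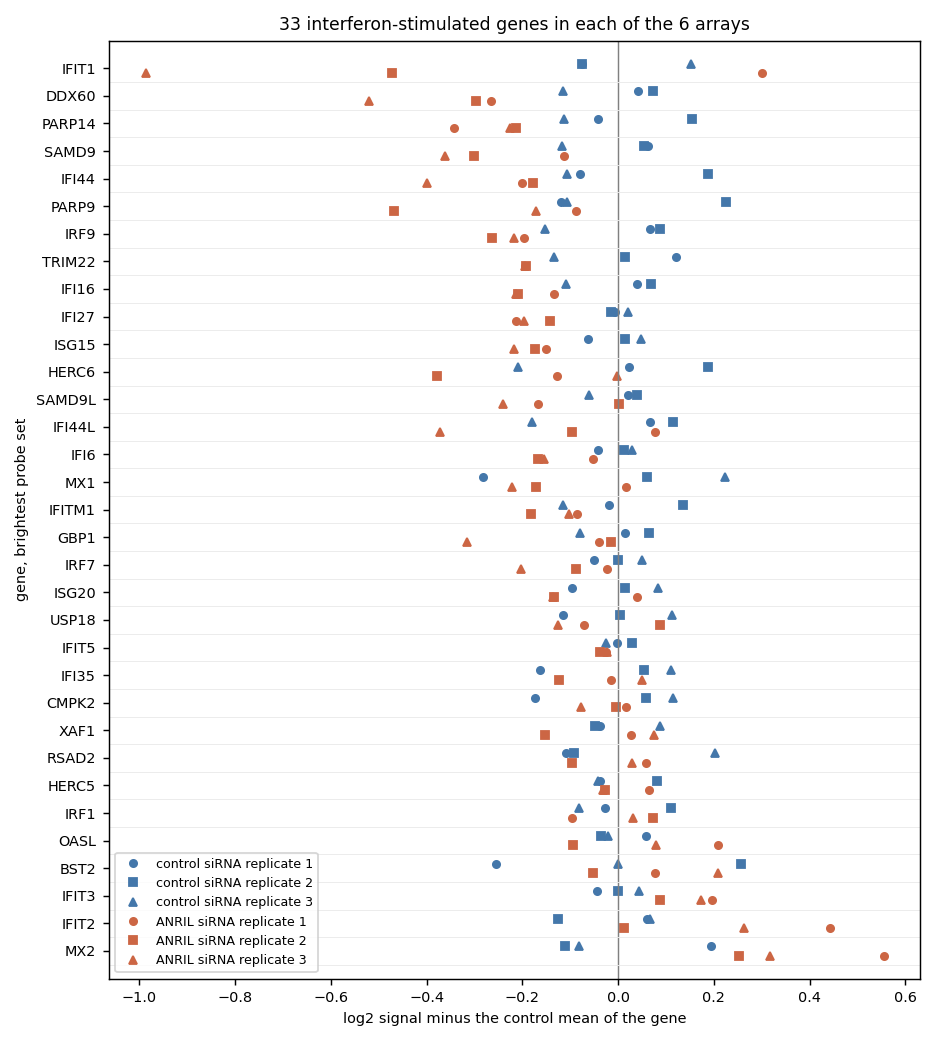
Each row is 1 of 33 genes, ordered by its difference, and each point is 1 array, given as its log2 signal minus the control mean of the gene (blue, 3 control siRNA arrays; orange, 3 ANRIL siRNA arrays). For DDX60 all orange points lie left of all blue points, for MX2 all lie right, and for IFIT1 the ANRIL siRNA arrays spread from 4.76 to 6.05 in log2 signal.

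The IFIT genes, neighbours on chromosome 10 that encode tetratricopeptide proteins binding foreign RNA, gave the widest spread. IFIT1, which binds RNA lacking cap methylation, had log2 values of 5.67, 5.67 and 5.90 in controls against 6.05, 5.27 and 4.76 after ANRIL siRNA (replicates 1 to 3). Replicate 1 of ANRIL siRNA was thus above all controls and the other two below all of them, and the difference of −0.39 ± 0.24 did not pass (adjusted p = 0.422). It was −0.73 without ANRIL siRNA replicate 1 (adjusted p = 0.234) and −0.09 without replicate 3, so its size rests on single arrays. IFIT3, the partner of IFIT1 in a complex, had 7.47, 7.51 and 7.56 in controls against 7.71, 7.60 and 7.69 after ANRIL siRNA at its brightest probe set, with no overlap (0.15 ± 0.06, adjusted p = 0.237). Its other probe set, dimmer, read the opposite sign, with 6.19, 6.43 and 6.28 against 6.45, 5.59 and 5.59 (−0.42 ± 0.20, adjusted p = 0.343 over all probe sets). There too replicate 1 stood above all controls and the other two far below.

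IFIT2, which promotes apoptosis and blocks translation, had 6.20, 6.02 and 6.21 against 6.59, 6.15 and 6.41 at the brighter probe set (0.24 ± 0.10, adjusted p = 0.263), where the groups overlapped. The dimmer IFIT2 probe set had 5.09, 4.88 and 5.10 against 5.17, 4.68 and 4.64 (−0.19 ± 0.13). The dimmer probe sets of IFIT2 and IFIT3 and the probe set of IFIT1 therefore shared an order within the ANRIL siRNA group, with replicate 1 the highest, and in these 3 probe sets it was the highest of all 6 arrays. Without that array the differences were −0.36 for the IFIT2 probe set, −0.71 for that of IFIT3 and −0.73 for IFIT1, none of which passed (limma adjusted p over all probe sets 0.402, 0.305 and 0.402). IFIT5, which binds RNA with a phosphorylated end, was nearly level (−0.03 ± 0.06 and, at its other probe set, 0.06 ± 0.08).

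The GTPases did not share a sign. MX2, a dynamin-like GTPase of the nuclear envelope that restricts HIV, had log2 values of 6.68, 6.38 and 6.41 in controls against 7.04, 6.74 and 6.80 after ANRIL siRNA. All 3 ANRIL siRNA arrays lay above all controls, a 1.3-fold difference (0.37 ± 0.10, 95% interval 0.15 to 0.60, adjusted p = 0.154). Its relative MX1, the cytoplasmic GTPase that blocks influenza virus, differed by −0.13 ± 0.12 (adjusted p = 0.584), with control arrays spread from 6.08 to 6.59 and ANRIL siRNA arrays from 6.14 to 6.38. GBP1, a guanylate-binding protein that responds mostly to interferon-gamma, differed by −0.12 ± 0.09 at its brightest probe set (adjusted p = 0.458). Of its 4 probe sets the 3 brighter ones were below 0 (−0.12, −0.12 and −0.21) and the dimmest above (0.16).

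Among RNA enzymes and helicases, DDX60 stood apart from the rest at the brightest probe sets. It encodes a helicase that assists RIG-I-like RNA sensors. It read 7.55, 7.59 and 7.40 (log2) in the controls against 7.25, 7.22 and 6.99 after ANRIL siRNA. All ANRIL siRNA arrays lay below all controls, 1.28-fold lower (−0.36 ± 0.08, 95% interval −0.54 to −0.18, adjusted p = 0.147), and the difference was −0.28 to −0.42 when any array was left out and −0.37 after cyclic loess. At their brightest probe sets the other 4 genes of this group were close to level. Differences there were −0.08 for the exonuclease gene ISG20 and −0.02 for the nucleotide kinase gene CMPK2. RSAD2, which encodes viperin, was at 0.00 and OASL at 0.07. The second probe set of ISG20, of nearly the same mean signal (6.62 against 6.68), was at −0.24 ± 0.11, with overlap between groups. CMPK2 was dim, at percentile 3.34 by signal, and RSAD2 lay at percentile 20.3, so their signal was low. The 2 probe sets of OASL were of opposite sign (0.07 ± 0.08 and −0.03 ± 0.08).

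The IFI genes, named only for their induction by interferon, were below 0 at 6 of 6, and 4 of them had no overlap. Lower with no overlap were 12.8% of all genes and 23.2% of those above the median signal, where these 4 lay. IFI27, a small membrane protein, had 10.96, 10.95 and 10.98 in controls against 10.75, 10.82 and 10.77 after ANRIL siRNA (−0.18 ± 0.06, adjusted p = 0.176). Its control arrays were closely spaced, and every ANRIL siRNA array lay below them. IFI16, a nuclear sensor of DNA, had 11.78, 11.81 and 11.63 against 11.60, 11.53 and 11.52 (−0.19 ± 0.07, adjusted p = 0.206), and its 3 probe sets were all below 0 (−0.19, −0.22 and −0.38). Both genes lay in the brightest decile, where the median of all genes was −0.07. After cyclic loess they differed by −0.10 each, and the groups of IFI16 then overlapped.

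IFI44 had 8.58, 8.85 and 8.55 in controls against 8.46, 8.48 and 8.26 after ANRIL siRNA (−0.26 ± 0.09, adjusted p = 0.201). Both of its probe sets showed no overlap, the dimmer at −0.18 ± 0.07. IFI6, an inhibitor of apoptosis at the mitochondrion, had 8.62, 8.67 and 8.69 against 8.61, 8.49 and 8.51 (−0.13 ± 0.06, adjusted p = 0.312). The gap between its groups was narrow, with ANRIL siRNA replicate 1 just under control replicate 1, and they overlapped after cyclic loess. IFI44L (−0.13 ± 0.11) and IFI35 (−0.03 ± 0.08) overlapped between groups.

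ISG15 is a ubiquitin-like protein that is joined to other proteins by the ligase HERC5 and removed by the protease USP18. ISG15 had log2 values of 10.09, 10.17 and 10.20 in controls against 9.999, 9.98 and 9.93 after ANRIL siRNA, with no overlap (−0.18 ± 0.06, adjusted p = 0.186). The median of all genes in its signal decile was −0.08. USP18, which also damps signalling at the interferon receptor, differed by −0.04 ± 0.08, and its sign turned with cyclic loess (0.015) and with quantile normalization (0.026). HERC5 differed by 0.00 ± 0.06, with values from 5.54 to 5.66 in the 6 arrays, and its sign turned with cyclic loess, to −0.064. The related HERC6 differed by −0.17 ± 0.11 at its brighter probe set and 0.00 ± 0.12 at the other. The modifier was thus lower in every ANRIL siRNA array, while its ligase and protease overlapped between groups.

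Of the transcription factors, IRF9 had no overlap. IRF9, the DNA-binding subunit of ISGF3, had 9.53, 9.56 and 9.32 in controls against 9.27, 9.20 and 9.25 after ANRIL siRNA (−0.23 ± 0.07, adjusted p = 0.184). Control replicate 3, the lowest control, lay close to the ANRIL siRNA arrays, and after cyclic loess the groups overlapped (−0.16). IRF7, which amplifies type I interferon production, differed by −0.11 ± 0.07 (adjusted p = 0.423), and IRF1, a factor induced chiefly by interferon-gamma, was level at both probe sets (0.00 ± 0.07 and −0.01 ± 0.08).

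SAMD9, SAMD9L, PARP9, PARP14, TRIM22 and XAF1 were all below 0, with a median of −0.22. Of these 6 genes 2 had no overlap, against 12.8% of all genes and 23.2% of those above the median signal, where both lay. PARP14, an ADP-ribosyltransferase with macrodomains, had 8.24, 8.43 and 8.17 in controls against 7.94, 8.06 and 8.05 after ANRIL siRNA (−0.26 ± 0.08, adjusted p = 0.17), while its dim second probe set was at 0.07 ± 0.08. TRIM22, an antiviral ubiquitin ligase, had 10.92, 10.82 and 10.67 against 10.61, 10.61 and 10.61 (−0.19 ± 0.07, adjusted p = 0.212). The 3 ANRIL siRNA arrays of TRIM22 agreed closely, and its spread came from the controls. After cyclic loess its groups overlapped (−0.11). SAMD9, a restriction factor of poxviruses, had 7.84, 7.83 and 7.66 against 7.66, 7.48 and 7.42 (−0.26 ± 0.08, adjusted p = 0.176). At that probe set ANRIL siRNA replicate 1 was level with control replicate 3, and at the dimmer one the groups did not overlap (−0.18 ± 0.08).

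SAMD9L, a paralogue of SAMD9, was below 0 at all 3 probe sets (−0.14, −0.13 and −0.19). PARP9, which forms a complex with the ubiquitin ligase DTX3L, differed by −0.24 ± 0.11 and −0.10 ± 0.11 at its 2 probe sets. XAF1, an antagonist of the apoptosis inhibitor XIAP, was at −0.02 ± 0.08 at the brightest and at 0.11 and 0.12 at the others. The membrane proteins that hold virus particles at the cell surface or block their entry, BST2 and IFITM1, differed by 0.08 ± 0.12 and −0.12 ± 0.07, with overlap in both. BST2 turned to −0.05 without control replicate 1.

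**Figure D3:**
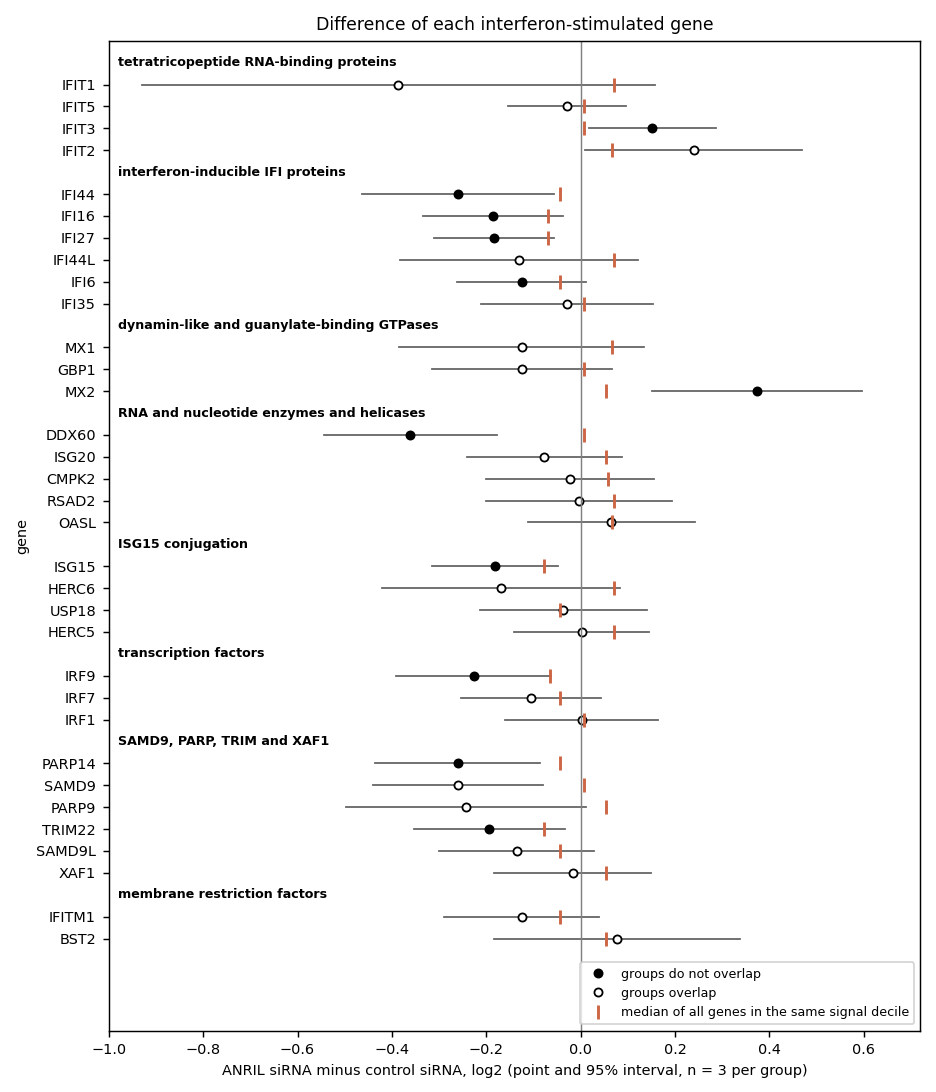
Points give the log2 difference of each of 33 genes at its brightest probe set, with lines for the 95% interval, grouped by role. Filled points mark the 11 genes whose groups do not overlap, and short orange bars give the median of all genes in the same signal decile. The interval of DDX60 lies wholly below 0 and that of MX2 wholly above.

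Of the 16 members with more than 1 probe set, 7 had all their probe sets on 1 side of 0. Over all 54 probe sets of the members, 41 were below 0 (75.9%), against 46.1% of all 54613 probe sets, and 13 were lower with no overlap and 3 higher, against 9.97% and 11% of all probe sets. The largest disagreements within a gene were those of IFIT3 and IFIT2. Averaged over its probe sets, IFIT3 was at −0.14 and IFIT2 at 0.02. Which exon or transcript each probe set reads was not analysed here.

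**Figure D4:**
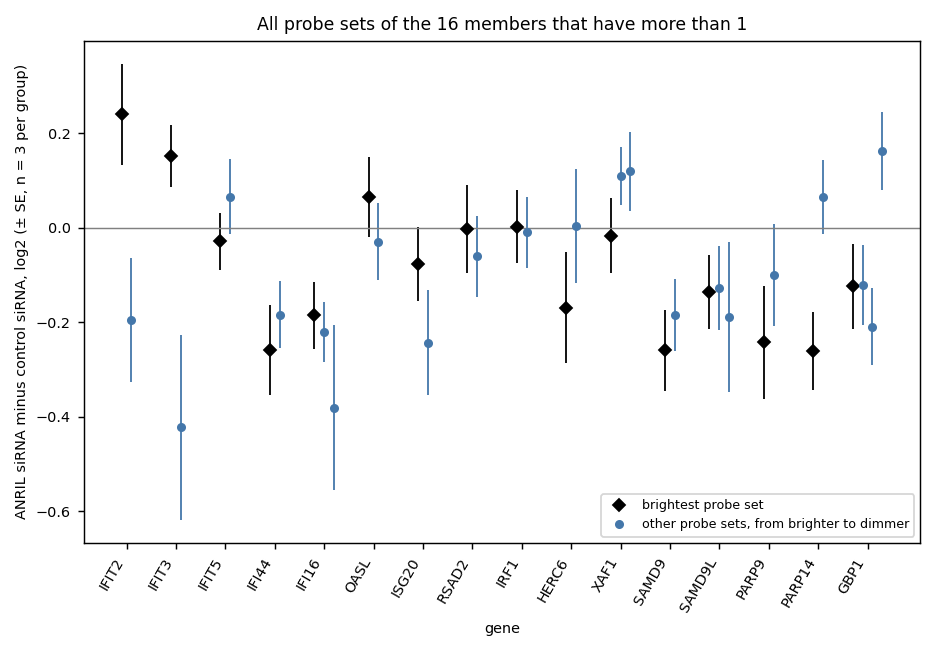
For each of the 16 members with more than 1 probe set, the log2 difference of every probe set is plotted with its SE (n = 3 per group), the brightest as a black diamond and the others in blue from brighter to dimmer. IFIT3 spans 0.15 to −0.42 and IFIT2 0.24 to −0.19, while IFI16, IFI44, SAMD9 and SAMD9L lie below 0 throughout.

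The calls depended on how the spread of a gene was estimated. With an intensity-trended robust prior, 3 of 33 members passed on the lower side, DDX60 (adjusted p = 0.0221), IFI16 (0.0435) and IFI27 (0.0451), where 2.15% of all genes did, and MX2 passed on the higher side (0.0381), where 0.582% did. With that prior after cyclic loess none of the 33 passed (0.0503 for DDX60 and 0.117 for MX2), where 0.379% of all genes passed lower and 0.298% higher. With only genes above the median signal in the fit, DDX60 passed (0.0282) on the lower side, where 2.57% of all genes in that fit did, and none of the 19 members there passed on the higher side, where 0.556% did.

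The 19 members with an ISRE core in their window were below 0 at 16, with a median of −0.13 and a range from −0.39 to 0.15. The 8 with a window and no such core were below 0 at 7, with a median of −0.08. The 6 with no window at hand had a median of 0.01, and MX2 was among them. No test was made between these subsets.

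The steps that lead to these genes were given by lists of the pathway. Of 18 interferon ligand genes measured, 14 were above 0 and none passed, with a median of 0.06. Their signal was dim, at a median percentile of 13.9. In decile 2, which holds that percentile, 73.1% of all genes were above 0 and the median was 0.07. The 3 of smallest p were IFNA8 (0.31 ± 0.06), IFNG (0.28 ± 0.11) and IFNA7 (−0.19 ± 0.09), with adjusted p-values of 0.144, 0.218 and 0.276. Of 10 receptors, kinases and STATs measured 8 were below 0 and none passed, with a median of −0.08. Their median percentile was 79.2, and in decile 8, which holds it, 19.8% of all genes were above 0, with a median of −0.07. Both counts were thus close to those of genes of like signal. The 3 receptors of smallest p were IFNGR1 (−0.13 ± 0.07) and IFNGR2 (−0.11 ± 0.06), the chains of the interferon-gamma receptor, and IL10RB (−0.12 ± 0.06).

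Of 16 feedback and inducing factors 10 were below 0 (62.5%) and none passed, at a median percentile of 65.8. Of all genes above the median signal, 74% were below 0. SOCS3, a feedback inhibitor of JAK kinases, differed by −0.32 ± 0.07 (adjusted p = 0.147), the phosphatase gene PTPN2 by −0.15 ± 0.06 and STING1, the adaptor of cytosolic DNA sensing, by −0.15 ± 0.07. A further list of 40 measured interferon-stimulated genes outside the 34 was below 0 at 26, or 65%, with a median of −0.06 and none passing. Its median percentile was 69, and the median of all genes in decile 7, which holds that percentile, was −0.04. The list held genes on both sides of the median signal, with mean log2 signals from 4.20 to 13.25. Above the median signal 74% of all genes were below 0 and at or below it 28.7%, so neither share alone is a like comparison for the 65%. Lower with no overlap were 15 of the 40 and higher 4, against 12.8% and 10.6% of all genes. Above the median signal 23.2% of all genes were lower with no overlap. Its 3 genes of smallest p were the guanylate-binding protein genes GBP2 (−0.27 ± 0.06) and GBP3 (−0.26 ± 0.06) and APOL1 (−0.29 ± 0.07), each with an adjusted p of 0.147. At an unadjusted p under 0.05, 12 of these 40 were lower and 2 higher, where 8.16% and 9.83% of all genes were. Above the median signal, 1383 of 9888 genes were lower and 312 higher at that p.

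Among RNA sensors and effectors 7 of 10 were below 0, against 51.4% of all genes, and none passed. Their median percentile was 34.1. At or below the median signal 28.7% of all genes were below 0, and above it 74%. At an unadjusted p under 0.05 in limma's test, 5 of the 10 were lower and 0 higher, where 8.16% and 9.83% of all genes were. The kinase gene EIF2AK2 was at −0.25 ± 0.07, RIGI at −0.22 ± 0.07 and IFIH1 at −0.37 ± 0.13. The interferon-inducible chemokines split, with CXCL11 at −0.82 ± 0.16 (adjusted p = 0.134), CXCL9 at 0.26 ± 0.07 and CCL8 at −0.15 ± 0.07.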

How the data were processed

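Total RNA of 6 HUVEC samples was hybridised to 1 array each. The values are log2 intensities deposited by the authors, of which 54613 probe sets were used and 62 control probe sets left out. The submitters' processing notes name RMA, affy and limma, with no version. In RMA, background correction is followed by quantile normalization and a summary of the probes of a set. Genes were named from the platform annotation, with symbols updated through Entrez identifiers to RefSeq (GRCh38.p14), and probe sets with several symbols (1801) or none listed (11721) named no gene. Differences were fitted over all 19775 genes in R 4.3.3 by limma 3.58.1 (lmFit, then eBayes with a constant prior, Benjamini-Hochberg adjustment, threshold 0.05, two-sided), and separately over all 54613 probe sets. Replicate numbers were not used. On simulated data with 19775 genes 88% of the simulated 1.5-fold changes and 97% of the 2-fold ones were recovered, beside 8 false calls. The simulated noise was independent between genes. The largest member difference was 1.31-fold (IFIT1), and recovery of changes that small was not simulated. The members, lists and alternatives were chosen with earlier results of these data known. Values per array are given for members with an unadjusted p under 0.05 or with groups that do not overlap, and for IFIT1 and second probe sets of IFIT2 and IFIT3, which were chosen after their values were seen. Of other lists, the 3 genes of smallest p are named. The number of arrays limits the precision. Alternatives tried were array weights, a block for the replicate number, a trended robust prior, other scalings, a filter at the median signal, other probe set rules, an adjusted p of 0.10, and each array left out.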

Additional observations from a re-analysis of the deposited data

How the results depend on the processing

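None of 19775 genes and none of the 33 members passed limma's test with a constant prior. Genes passing numbered 541 (115 higher, 426 lower) with the trended robust prior, 134 (59 and 75) with that prior after cyclic loess, 309 with genes above the median signal only and 32 (1 and 31) with arrays centred on their medians. Members passing numbered 4 with the trended robust prior and 1 above the median signal. An adjusted p of 0.10 called none of either. The median of the members was −0.17 with centred arrays and −0.15 to −0.069 with an array left out. Members lower with no overlap numbered 6 after repeated quantile normalization (7.85% of all genes), 6 after cyclic loess (8.61%), 14 with centred arrays (19.3%) and 9 to 15 with an array left out (14.7% to 24.4%), and those higher 2 to 4 with an array left out (14.2% to 18%). The counts of groups without overlap were alternatives chosen with the data in view.

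Of 506 member values under the alternatives, 466 kept their direction and their side of the threshold, 5 passed it and 35 turned sign. The sign turned for IFIT3 (−0.14), IFIT5 (0.018), IRF1 (−0.0039) and XAF1 (0.070) with the mean of all probe sets, for OASL without _s_at and _x_at probe sets (−0.03), and for RSAD2 (0.0011) and IRF1 (−0.028) with array weights. Centring turned IRF1 (−0.048) and HERC5 (−0.048). Repeated quantile normalization turned USP18 (0.026) and HERC5 (−0.052), and cyclic loess, with either prior, USP18 (0.015) and HERC5 (−0.064). The cause was not tested. With an array left out, IFI35 ran from −0.11 to 0.0265, OASL from −0.00695 to 0.14, RSAD2 from −0.058 to 0.10, IRF1 from −0.039 to 0.057, USP18 from −0.10 to 0.019, HERC5 from −0.0298 to 0.043, CMPK2 from −0.11 to 0.035, XAF1 from −0.063 to 0.0502 and BST2 from −0.0502 to 0.20.

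With the replicate number as a block 0 genes and 0 members passed. Deviations of same-numbered arrays from their group means correlated at 0.04, 0.18 and −0.02 across genes. Arrays of unlike number ran from −0.21 to 0.18, the highest being control replicate 1 with ANRIL siRNA replicate 3. The highest values of both kinds were nearly equal, and with 3 arrays per group they cannot settle whether the numbers mark pairs. Dim probe sets such as those of CMPK2 and RSAD2 limit what can be read of their genes.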
